A study of Mus musculus with 2 samples.

Results

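The protein genes of the cytosolic ribosome were examined in pooled E8.5 mouse embryos, in which RNA of homozygous mDom mutants was compared with RNA of wild-type litter mates. Members were the probes whose only annotated symbol is Rpl or Rps followed by digits, or Rplp0, Rplp1, Rplp2 or Rpsa, with the Rps6k kinases and pseudogenes left out. The rule took 80 of the 36227 probes of the array, for 61 genes, 41 of the large subunit and 20 of the small subunit. Of these probes, 74 were above the floor on both arrays, 1 on the mDom-/- array only, 1 on the wild-type array only and 4 on neither, and 58 genes could be compared.

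The mDom-/- sample was total RNA of the embryo proper from 45 pooled embryos, and the wild-type sample the same from 42. Each RNA was hybridised to 1 array of 1 colour, so there is no replicate, no test and no p-value below, and the pools give no measure of the spread between embryos or litters. mDom, or p400, is the submitters' name for the gene now called Ep400, which encodes the ATPase of the TIP60/p400 chromatin-remodelling complex, and the labels do not say which part of the gene is altered. Intensities are expressed as multiples of the median of their array, and a ratio is the log2 intensity in mDom-/- minus that in wild-type. The floor lay at 0.541. A value under the floor was raised to it for the ratio where the other array was above it, and probes under it on both arrays were not compared.

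The eukaryotic ribosome has a small subunit, which binds the mRNA and decodes it, and a large subunit, which joins amino acids and lets the new peptide out through a tunnel. Its proteins are needed in near equal numbers, and their mRNAs are among the most abundant of growing cells. These mRNAs commonly begin with a run of pyrimidines, the terminal oligopyrimidine tract, through which the growth-controlling kinase mTOR regulates their translation. In human patients, loss of one copy of several of these genes causes Diamond-Blackfan anaemia, a failure to make red cells.

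Ep400 could not serve as a check of the labels, since its 2 probes read -0.029 and 0.071 on the mDom-/- array and 0.215 and 0.470 on the wild-type array, all under the floor. Of 10 markers of the embryo proper 8 were compared, with a median ratio of 0.06, and Sox2, of neural progenitors, was under the floor in both pools. Markers of primitive red cells were lower in 6 of 7, with a median ratio of -0.45, where 49.5% of all compared genes were above 0. Among the 6, Rhag was nearly level (-0.01), and Epor and Gata1 were under the floor in mDom-/-. The intensities of the 7 summed to 58.7 in mDom-/- and 368.6 in wild-type, where Hbb-y gave 133.8 and Hba-x 199.9. Of the visceral endoderm and yolk sac markers 4 of 9 compared ones were higher and 5 lower, with a median ratio of -0.13. Their sums went the other way, with 868.1 in mDom-/- and 677.1 in wild-type, and Amn was under the floor in both. In these sums Apoc2 gave 242 in mDom-/- and 128 in wild-type, and Ttr 251 and 167. Of 7 markers of trophoblast and decidua 3 were compared, Hand1, Prl8a2 and Cdx2, with a median ratio of 0.15. They summed to 35.1 in mDom-/- and 35.2 in wild-type. Tpbpa was under the floor in both, and Prl3d1, Prl2c2 and Gcm1 had no value, so this sum covers only part of the list. In pooled tissue, fewer cells of a type and less RNA per cell cannot be told apart, and the part of these markers in the results below was not tested.

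Ribosomal protein genes read slightly higher in the mDom-/- pool almost throughout. Their median intensity was 734.8 in mDom-/- and 597.9 in wild-type, and their median ratio was 0.24, which is 1.18-fold. Of 58 compared genes 55 had a ratio above 0, whereas 49.5% of all compared genes did. At least 25% higher than in wild-type were 17 genes, and none was at least 20% lower, the same distance downwards, against a background of 12.4% of compared genes higher and 14.2% lower. None reached 2-fold in either direction, where 1.77% of compared genes did. The members' intensities made up 14.5% of the summed intensity of all compared genes in mDom-/- and 12.6% in wild-type.

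**Figure D1:**
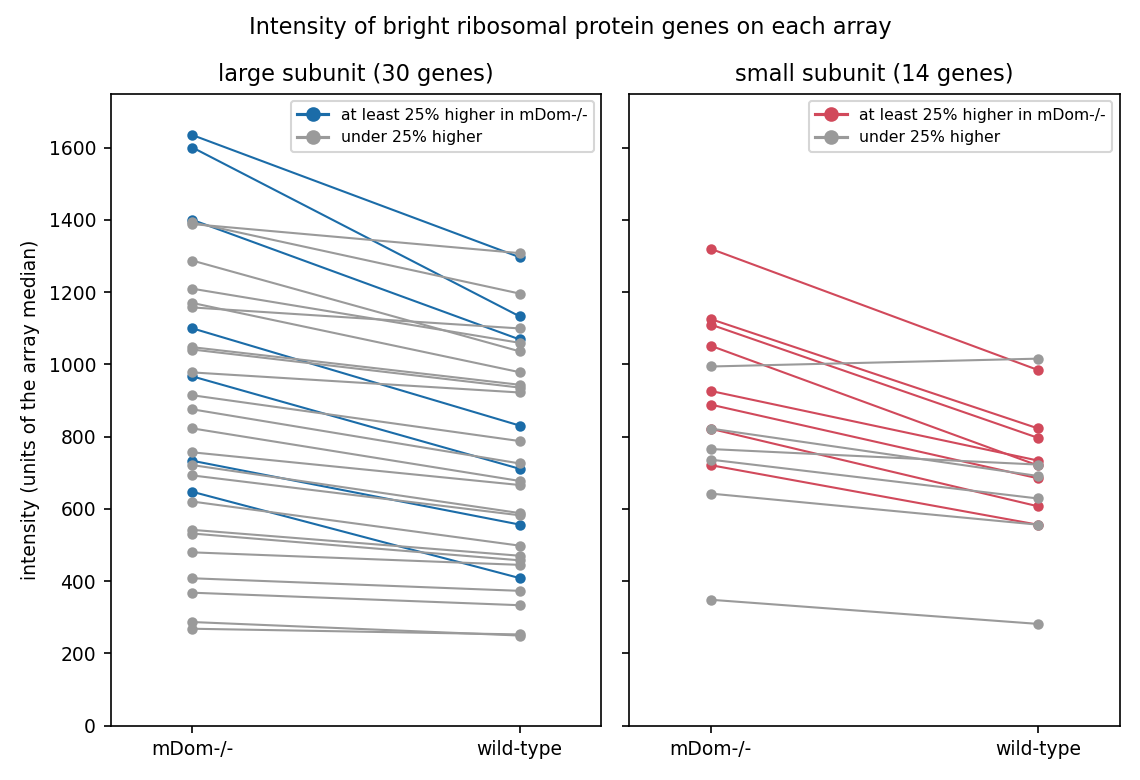
Intensity, in units of the array median, of the 30 large-subunit and 14 small-subunit genes with a mean log2 intensity of 8 or more, on the mDom-/- array at the left and the wild-type array at the right of each panel. Each line is 1 gene, coloured where it was at least 25% higher in mDom-/-, and every line but that of Rps16 lies higher at the mDom-/- end.

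How far this differs from other bright genes is limited by what else is on the array, because ribosomal protein genes are most of its bright end. They were 21 of the 25 brightest compared genes and 38 of the 50 brightest, and only 8 other genes were brighter than the median member. Other bright genes also read higher in mDom-/-. The median ratio of genes outside the family was -0.005 at mean log2 intensities from 3 to 7, 0.09 from 7 to 8, 0.17 from 8 to 9 and 0.18 from 9 to 10, the last over 10 genes. In the same bands the members' medians were 0.20 over 6 genes, 0.13 over 4, 0.17 over 8 and 0.29 over 26. Below a mean log2 intensity of 9 the bright members thus lay close to other genes, and from 9 to 10 their median was the higher. From 10 to 11 the median of 10 members was 0.29, and the 1 other gene there, Ppia, was at 0.33.

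Set against the 100 other compared genes nearest in brightness, the median member was 0.11 higher on the log2 scale, with 44 of 58 above its neighbours' median and 14 below. This difference was 0.01 with quantile normalization and 0.06 with loess. It was 0.06 when only genes within 0.25 log2 units were used, a setting chosen after seeing the data. That value covers only the 37 members with at least 5 such genes. For members with a mean log2 intensity over about 9 the 100 nearest genes are nearly all dimmer than the member itself. All 36 members of 9 or more share 1 neighbour median, 0.16, so there the comparison is with a single value. Among genes of mean log2 intensity 8 or more, 15 of 44 members were at least 25% higher, and so were 10 of 83 other genes (12.0%). At least 20% lower were none of these members and 2 of the others (2.41%). A ratio above 0 was found in 43 of these 44 members and in 75 of the 83 others (90.4%), so the direction alone did not set the family apart. Their spread was alike too, with an SD of the ratio between genes of 0.15 in members and 0.14 in the others. With 9 as the limit, 15 of 36 members and 2 of 11 other genes (18.2%) were at least 25% higher, the others being Ppia, a peptidyl-prolyl isomerase gene (0.33), and Tuba1b, an alpha-tubulin gene (0.40).

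**Figure D2:**
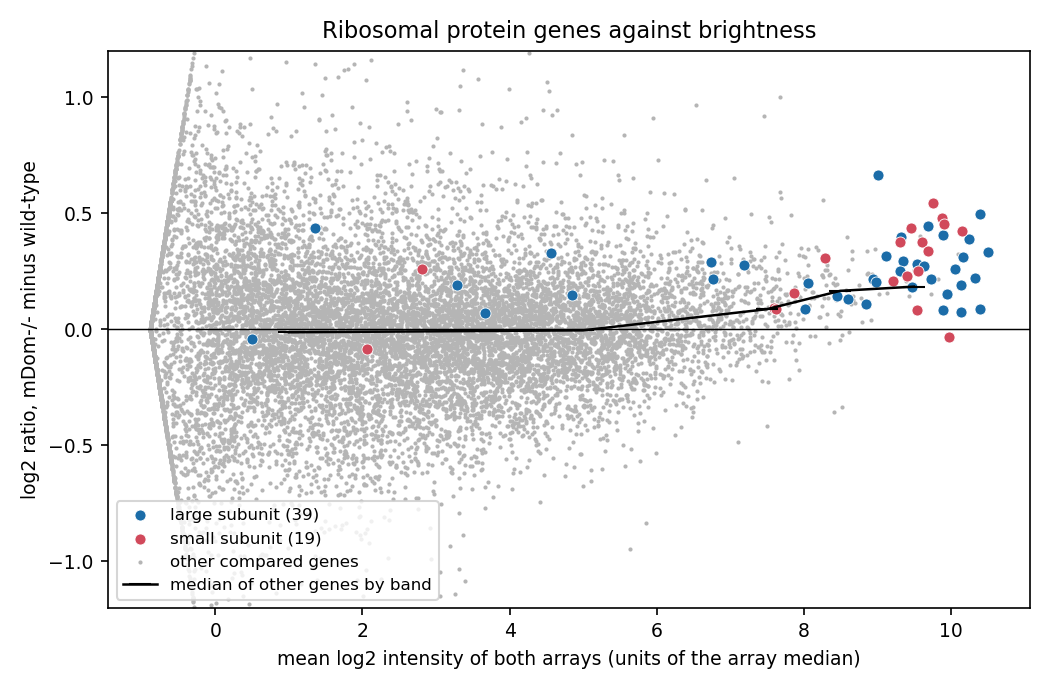
Log2 ratio of mDom-/- to wild-type against mean log2 intensity of both arrays, for 39 large-subunit genes, 19 small-subunit genes and all other compared genes as small grey points, of which 123 lie at or beyond the limits of 1.2 and are not drawn. The black line joins the medians of other genes in bands of brightness with at least 5 genes. It climbs to 0.18 at the bright end, where most members lie, on both sides of it but more often above.

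Normalizations that let the ratio depend on brightness took most of the shared shift away. The members' median ratio was 0.02 with quantile normalization and 0.03 with loess on mean brightness. It was 0.03 again when the loess curve was fitted without the probes annotated by name to a ribosomal protein gene. Probes with no listed symbol and the probe of Fau were still in that fit. With both, 27 genes stayed above 0, and 26 of those above 0 with median scaling turned below 0 in at least 1 of them, while Rpl36 and Rps29 stood at 0 with quantile normalization. The order of the members was largely kept, with a Spearman's rho of 0.81 between median scaling and loess across 58 genes, which are measured on the same arrays and are not independent. The 26 were Rpl3, Rpl4, Rpl5, Rpl6, Rpl7, Rpl8, Rpl10a, Rpl11, Rpl13, Rpl14, Rpl19, Rpl24, Rpl27a, Rpl31, Rpl32, Rpl35, Rpl36al, Rpl39 and Rplp0 of the large subunit and Rps3a1, Rps7, Rps10, Rps14, Rps18, Rps24 and Rps27l of the small subunit. The ratios below are those with median scaling unless another setting is named, and for these 26 genes the sign depends on the normalization.

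Among the 39 large-subunit genes the median ratio was 0.22, with 38 above 0 and 9 at least 25% higher. Rpl35a, a gene of Diamond-Blackfan anaemia, had the highest ratio of all members, with an intensity of 647 in mDom-/- and 409 in wild-type (ratio 0.66). Rpl36a, whose protein lies by the exit site of tRNAs, read 1600.5 in mDom-/- and 1133 in wild-type (0.50). The acidic stalk gene Rplp2 read 967 in mDom-/- and 711 in wild-type (0.44). These 3, with Rpl37a (0.40) and Rpl22 (0.40), stayed above 0 with quantile normalization and loess, and Rpl35a stayed at least 0.44 in both. Rpl22 encodes a protein that most cells can do without and developing T cells need.

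Rpl17, whose protein lines the exit tunnel, had the fourth ratio of the large subunit but was dim, at 2.98 in mDom-/- and 2.21 in wild-type (0.43). Its probes disagreed: a second read 1.43 in mDom-/- and 1.32 in wild-type, and another was under the floor in mDom-/- at 0.37 and just over it in wild-type at 0.621, so that wild-type was at least 1.15-fold higher there. The value of Rpl17 therefore depends on the probe. Rpl23, whose protein binds Mdm2 as well as the ribosome, read 1400.1 in mDom-/- and 1069 in wild-type (0.39). Rpl41, which encodes one of the smallest ribosomal proteins, read 1635 in mDom-/- and 1297 in wild-type (0.33). Rpl27a read 1287 in mDom-/- and 1036 in wild-type (0.31) and Rpl38 had a ratio of 0.32. Between these and the low end lay Rpl36, Rpl30, Rpl13a, Rpl6, Rpl24, Rpl13, Rpl10a, Rpl29, Rpl4, Rpl32 and Rpl8, with ratios from 0.29 to 0.14.

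The low end of the large subunit held bright genes as well. Rpl19, whose protein takes part in a bridge to the small subunit, read 1388 in mDom-/- and 1308 in wild-type (0.09). Rpl7 read 978 in mDom-/- and 922 in wild-type (0.08), and Rpl11 read 1158 in mDom-/- and 1099.6 in wild-type (0.07). These were nearly level with wild-type at brightnesses where other members were over 25% higher. Rpl14 read 268 in mDom-/- and 253 in wild-type (0.09). All 4 were below 0 with quantile normalization and loess, where Rpl19 was lowest at -0.24 and -0.21. Rpl7a had a ratio of 0.07 at intensities near 13, and Rpl39l one of -0.04.

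Among the 19 small-subunit genes the median ratio was 0.26, with 17 above 0 and 8 at least 25% higher. Rps19, the gene most often mutated in Diamond-Blackfan anaemia and a protein of the subunit's head, read 1052 in mDom-/- and 720.3 in wild-type (0.55). Rps4x, an X-linked gene, read 1110.4 in mDom-/- and 797 in wild-type (0.48). Rps26, whose protein lies where the mRNA leaves the subunit, read 1126 in mDom-/- and 823 in wild-type (0.45). Rps3, at the mRNA entry, followed with 822 in mDom-/- and 607 in wild-type (0.44). Rps20 had a ratio of 0.42 and Rps9, which helps keep decoding accurate, one of 0.38. All 6 stayed above 0 with quantile normalization and loess, between 0.10 and 0.31. Rps15 (0.37) and Rps29 (0.34), both of the head, completed the 8 that were at least 25% higher. Rps13 (0.31), Rpsa, whose protein is also known as a laminin receptor (0.26), Rps18 (0.25) and Rps14 (0.23) lay around the subunit's median.

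At the low end Rps16, whose tail reaches the peptidyl-site tRNA, was the only bright member below 0, with 994 in mDom-/- and 1016 in wild-type (-0.03, and -0.31 with quantile normalization and -0.30 with loess). Rps3a1 read 766 in mDom-/- and 723 in wild-type (0.08), and was below 0 with both of these settings (-0.18 and -0.17). The Diamond-Blackfan genes Rps24 and Rps7 both had a ratio of 0.09 at intensities near 200, and turned slightly below 0 likewise. Rps27l had 0.16. Rps15a was dim at 4.07 in mDom-/- and 4.31 in wild-type (-0.08).

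**Figure D3:**
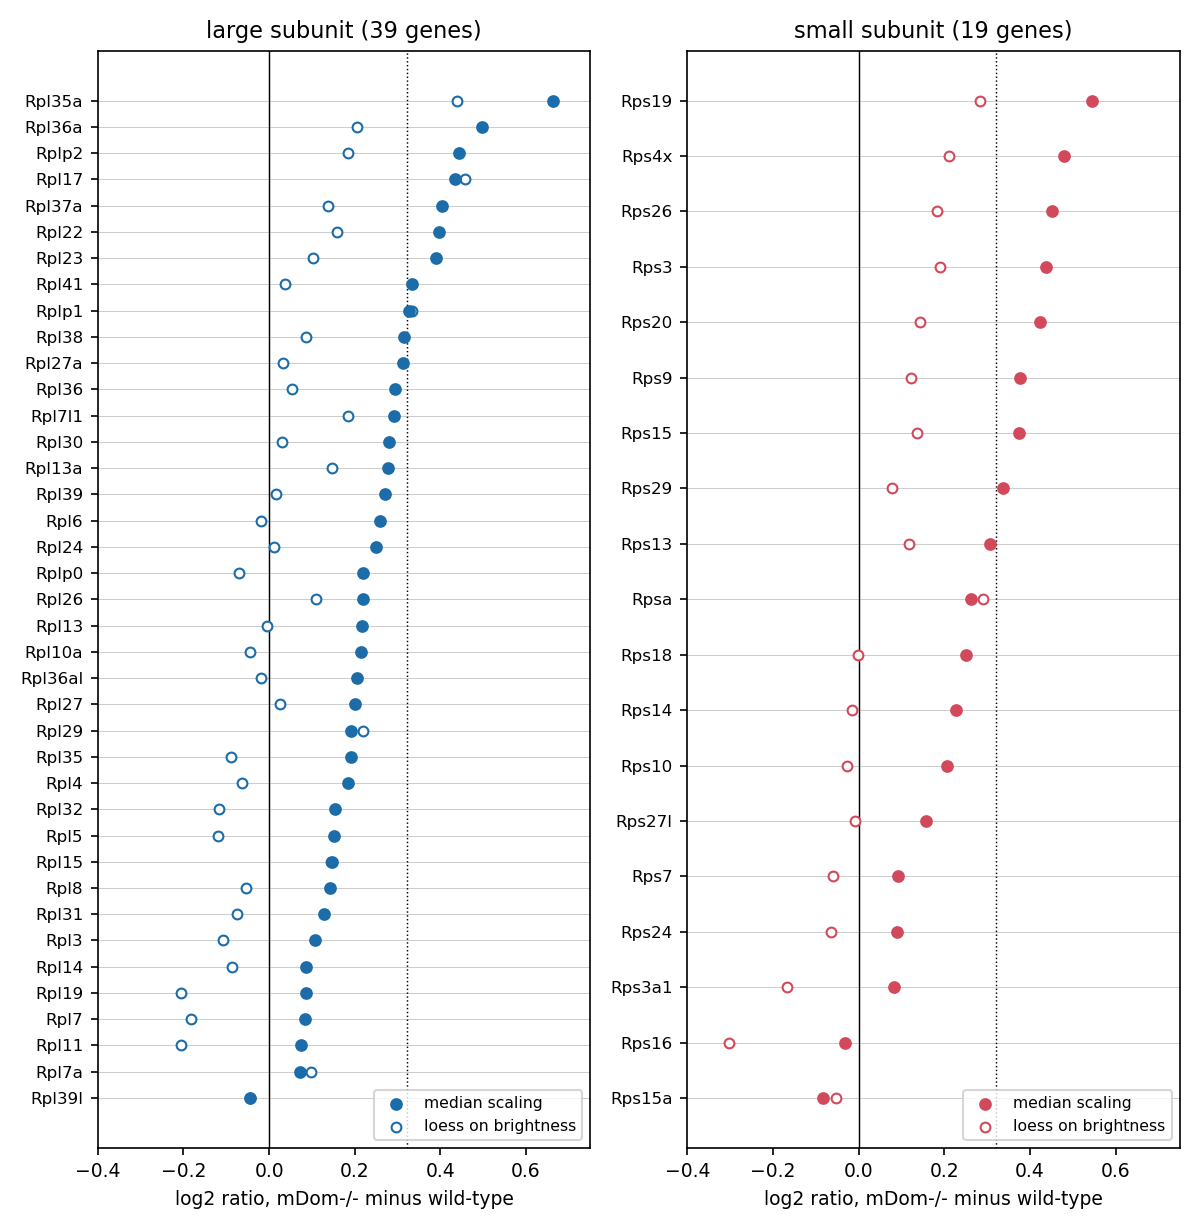
Log2 ratio of mDom-/- to wild-type of each compared gene, ranked within the large subunit at the left and the small subunit at the right. Filled points are values with each array scaled to its median, open points those after loess on brightness, and the dotted line marks 25% higher. Loess moves the bright genes left by about the same amount, and Rpl35a and Rps19 remain the highest bright genes of their subunits.

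With median scaling, the small subunit had the higher share of genes past 25%. At a mean log2 intensity of 9 or more, 8 of 13 small-subunit genes were at least 25% higher and 7 of 23 large-subunit genes, with median ratios of 0.37 and 0.27. Over all brightnesses, the order of the shares did not hold with quantile normalization or loess. There 3 of 39 large-subunit genes, among them the dim Rpl17 and Rplp1, and none of 19 small-subunit genes were at least 25% higher. The order of the medians held, with 0.06 in the small and 0.02 in the large subunit with quantile normalization, and 0.08 and 0.02 with loess. The difference between the subunits was not tested. Within the small subunit, the 8 compared genes of the head list had a median of 0.36 and the other 11 one of 0.23. With loess the medians were 0.11 and -0.01, and with quantile normalization the order turned, with 0.04 in the head list and 0.06 in the others. The head list holds both the highest small-subunit gene, Rps19, and the lowest bright one, Rps16.

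Promoter sequences of 46 of the 58 compared genes were found in the RefSeq table (GRCm38.p6), as windows from 250 bases before to 50 after each annotated start. The 3 highest and 3 lowest ratios were taken among members with a mean log2 intensity of 9 or more and 1 listed start, and these genes are shown from 85 bases before the start to 30 bases from it on, so that the start is base 86, and each is written 5′ to 3′ on the strand of the gene. They let the genes that read most apart be compared letter by letter. Capitals mark an unbroken run of at least 8 pyrimidines that touches the stretch from 10 bases before to 25 after the start, and the 7 letters CGGAAGT, the core of sites bound by ETS factors, or AAGATGG, the core of sites bound by YY1, on either strand. Within this selection, the first 3 genes had the highest ratios and the last 3 the lowest.
Rpl36a, chrX:134585569-134585683, plus strand: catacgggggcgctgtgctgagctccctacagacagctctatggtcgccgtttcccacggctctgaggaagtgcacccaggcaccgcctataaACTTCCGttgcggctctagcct
Rps4x, chrX:102189362-102189476, minus strand: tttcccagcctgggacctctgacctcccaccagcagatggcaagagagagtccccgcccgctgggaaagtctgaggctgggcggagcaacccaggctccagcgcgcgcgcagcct
Rps26, chr10:128626477-128626591, minus strand: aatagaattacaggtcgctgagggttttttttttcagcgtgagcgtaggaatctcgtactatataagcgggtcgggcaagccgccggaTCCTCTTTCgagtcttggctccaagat
Rps3a1, chr3:86142639-86142753, minus strand: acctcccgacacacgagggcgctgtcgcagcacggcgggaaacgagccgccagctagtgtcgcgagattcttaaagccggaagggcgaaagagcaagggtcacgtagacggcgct
Rpl11, chr4:136053364-136053478, minus strand: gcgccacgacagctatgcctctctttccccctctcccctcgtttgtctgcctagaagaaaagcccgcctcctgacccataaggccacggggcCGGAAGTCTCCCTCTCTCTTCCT
Rps16, chr7:28350604-28350718, plus strand: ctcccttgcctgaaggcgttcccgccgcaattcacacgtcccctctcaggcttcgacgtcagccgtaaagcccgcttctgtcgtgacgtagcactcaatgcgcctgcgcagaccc

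The 6 windows did not divide by ratio. A pyrimidine run stood in Rps26 among the high genes and in Rpl11 among the low ones, where it was 17 bases long and overlapped CGGAAGT by its first base. CGGAAGT, as written or as its reverse complement ACTTCCG, stood in Rpl36a among the high genes and in Rpl11 among the low ones. A pyrimidine run touching the same stretch around the start was found in 26 of the 46 genes and in 20.4% of 17445 other protein-coding genes. Over the whole 300 bases, CGGAAGT was found in 17 of 46 and in 9.31% of the others, and AAGATGG in 9 of 46 and in 7.15% of the others. Of all 32851 windows of that length in the table, 18.0% held such a run, 6.42% CGGAAGT and 6.34% AAGATGG. Members with a pyrimidine run had a median ratio of 0.21 (26 genes) and those without one 0.28 (20 genes). With and without CGGAAGT the medians were 0.25 and 0.22, and with and without AAGATGG 0.28 and 0.22. A match is a run of letters only, and annotated starts can lie some bases from the start that is used.

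The stalk, through which the large subunit recruits translation factors, was measured in all 3 of its proteins. Rplp2 is given above. Rplp1 read 26.4 in mDom-/- and 21.0 in wild-type (0.33), and Rplp0, the base of the stalk, 1393 in mDom-/- and 1196 in wild-type (0.22). With loess Rplp1 and Rplp2 stayed above 0 and Rplp0 was at -0.07. Rpl5 and Rpl11, which carry the 5S ribosomal RNA into the large subunit and can bind Mdm2, lay below the subunit's median by their brightest probes. Rpl5 read 1048 in mDom-/- and 944 in wild-type (0.15), but its second probe read 589 in mDom-/- and 484 in wild-type (0.28), above that median. By the brightest probes both were below 0 with quantile normalization and loess, with a median of -0.13 and -0.16.

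The exit tunnel list had a median ratio of 0.19 over 7 genes, against 0.24 over the other 32 large-subunit genes, and turned to -0.03 with quantile normalization and -0.06 with loess. Of the 18 genes of the Diamond-Blackfan list 14 were compared. Their median was 0.20, with 4 at least 25% higher, Rpl35a, Rps19, Rps26 and Rps29 (0.34), and it was -0.01 with quantile normalization and -0.001 with loess. Of the other compared genes of the list the highest were Rpl26 (0.22) and Rps10 (0.21). The 44 members outside that list had a median of 0.26, with 13 at least 25% higher. The anaemia genes thus did not stand together: they held the highest genes of both subunits and also Rps7, Rps24 and Rpl11. The 3 compared X-linked members, Rps4x, Rpl36a and Rpl39, had ratios from 0.27 to 0.50, the 55 autosomal members a median of 0.22 and the 448 other X-linked genes one of -0.05, or of 0.08 over the 14 with a mean log2 intensity of 7 or more. Rpl39 was at -0.03 with quantile normalization.

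Paralogues were few. Rpl7l1 read 118 in mDom-/- and 96.8 in wild-type (0.29), and its dimmer probes gave 0.00 and -0.14, while its relative Rpl7 had 0.08. Rpl36al, a near copy of Rpl36a, read 542 in mDom-/- and 470.4 in wild-type (0.20). Rps27l, a p53-induced relative of Rps27, read 247 in mDom-/- and 221 in wild-type. Rpl39l, known from testis, was dim at 1.39 in mDom-/- and 1.43 in wild-type, while Rpl39 read 876 in mDom-/- and 726 in wild-type (0.27). Rpl3l, of striated muscle, was under the floor on both arrays, and Rpl3, at the peptidyl transferase centre, had a ratio of 0.11. Near-identical copies of ribosomal protein genes are many in the mouse genome, and whether a probe also binds their RNA was not tested.

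Repeat probes gave the only measure of error, that between probes on the same 2 arrays, which does not cover the spread between RNA pools or arrays. Over 7 member genes with several probes at a mean log2 intensity of 7 or more, the SD of the ratio of 1 probe was 0.09, and over 12 genes of the whole array with 2 such probes it was 0.11. The SD between members was 0.15 at a mean log2 intensity of 8 or more, another limit of brightness. It was larger than either, but so was the 0.14 between other genes of 8 or more. The 2 brightest probes of Rpl22 gave 0.40 and 0.45 and those of Rpl4 0.18 and 0.18, while those of Rps4x gave 0.48 and 0.23. Both of these Rps4x values are above 0, but only 1 is past 25%. Dim probes followed their gene less closely. A dim probe of Rps20 gave -0.04 beside 0.42, and one of Rps13 was at 1.38 in mDom-/- and under the floor in wild-type, at least 2.55-fold higher, while the bright Rps13 probe gave 0.31. Rps2 and Rpl34 had 1 probe each, under the floor on both arrays, at 0.352 and 0.077 in mDom-/- and 0.232 and 0.303 in wild-type, and so had the second probe of Rpl35.

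Among other genes of the ribosome and of translation, the closest relative by role was Fau, which encodes a small-subunit protein fused to a ubiquitin-like one. It read 269.9 in mDom-/- and 192 in wild-type (0.49, and 0.37 with quantile normalization and 0.33 with loess). Rack1 had no compared probe. Translation factors whose mRNAs also begin with a pyrimidine run had a median of 0.15 over 14 genes, but of -0.02 with quantile normalization and -0.05 with loess. Above 0 were 12 of the 14, against 49.5% of all compared genes and 70.9% of other genes at mean log2 intensities from 7 to 8, and the list's median difference from genes of like brightness was 0.003. The highest were the elongation factor genes Eef1g (0.35) and Eef1b2 (0.23) and the initiation factor gene Eif4b (0.30), with Naca, of the complex that meets the new peptide, at 0.22.

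The ribosome assembly list, of genes that build ribosomes, had a median of -0.11. Of its 32 compared genes 11 were above 0, against 49.5% of all compared genes. At least 20% lower were 5, near the 14.2% of all compared genes, and none was at least 25% higher, against 12.4%. The list's median stayed between -0.16 and -0.09 over all 9 scaling, normalization and floor settings tried. Rrs1 read 0.873 in mDom-/- and 1.94 in wild-type (-1.15) and Nolc1, a nucleolar phosphoprotein gene, 0.829 in mDom-/- and 1.72 in wild-type (-1.05), both near the floor. Bop1, which processes large-subunit RNA, was also dim, at 1.34 in mDom-/- and 2.25 in wild-type (-0.75). Polr1b, of RNA polymerase I, read 15.3 in mDom-/- and 23.2 in wild-type (-0.60). The list is dimmer than the ribosomal proteins, with a median mean log2 intensity of 4.89 against 9.38, and the difference between the lists was not tested.

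Mitochondrial ribosomal proteins had a median of 0.07 over 72 compared genes, and of 0.05 with quantile normalization and 0.04 with loess. Above 0 were 47, none was at least 25% higher and 2 were at least 20% lower, against 49.5%, 12.4% and 14.2% of all compared genes. Mrps25 (0.31) and Mrpl23 (0.28) were at the high end, Mrpl51 (-0.44) and Mrps9 (-0.36) at the low end. Housekeeping genes known as abundant had a median of 0.12 over 11 genes, of 0.03 with quantile normalization and of 0.01 with loess. Not all were bright here: H3f3a, whose ratio is that median, read 1.06 in mDom-/- and 0.976 in wild-type, and Gapdh read 1.22 in mDom-/- and 1.17 in wild-type. With the 60th percentile floor the median was 0.16 over 9 genes. They went both ways, with Tuba1b, Ppia and Ldha (0.26) higher and the actin gene Actb at 326 in mDom-/- and 412 in wild-type (-0.34).

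**Figure D4:**
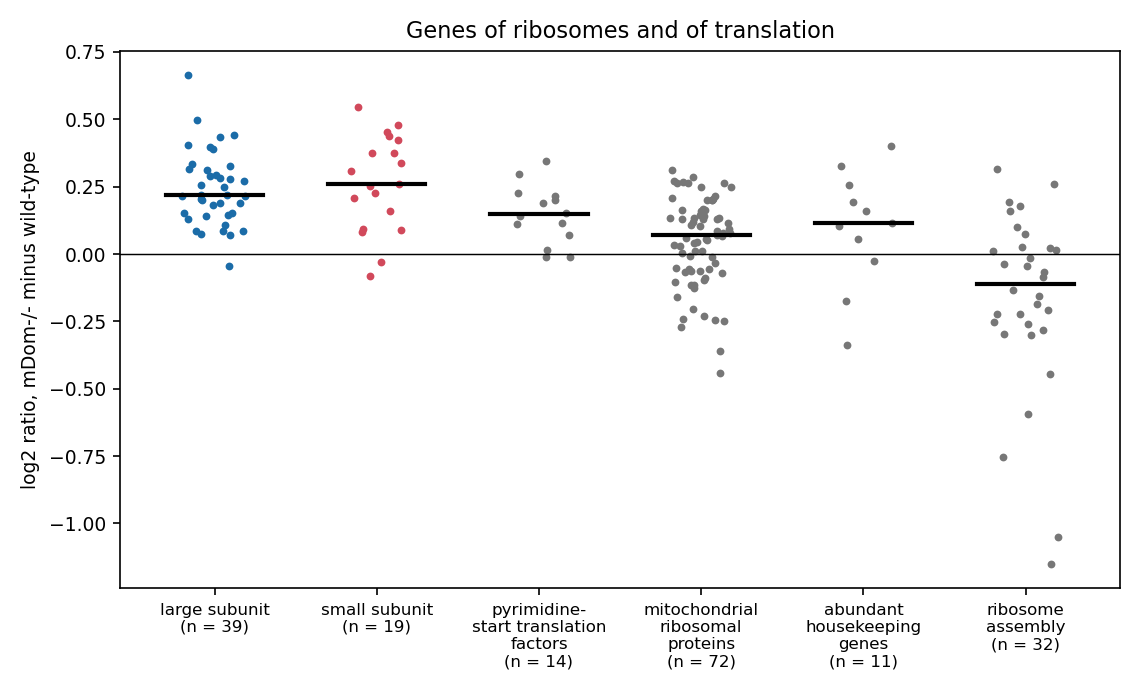
Log2 ratio of mDom-/- to wild-type of each compared gene in the 2 ribosomal subunits and 4 other lists, with each array scaled to its median. Points are genes, spread sideways at random, and the bars are medians, which run from 0.26 in the small subunit to -0.11 in ribosome assembly genes.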

How the data were processed

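Intensities of 2 arrays, 1 of mDom-/- and 1 of wild-type embryos, were used as deposited by the authors, on a linear scale and already scaled per array, with medians of 1.05 on both. Per the labels, images were analysed with CodeLink System Software; its version, background correction and scaling were not given in the sources used here. Code -9999 was read as no value (106 mDom-/- and 105 wild-type probes). Each array was divided by its median, raised to a common floor (the higher of the 40th percentiles, 0.541) and put on the log2 scale. Probes above it on 1 or both arrays were compared, and a gene took its brightest probe, giving 13137 compared genes, 58 of them members.

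Of 36227 probes 21615 had 1 symbol in the platform annotation, 681 several and 13931 none listed. Symbols were updated through Entrez identifiers found in RefSeq GRCm38.p6 (21487 probes), which added and removed no member. Size rules were 25% higher, 20% lower (its inverse) and 2-fold. Lists and members were chosen with earlier results of these data known. Named genes were the 6 highest and 6 lowest of each subunit, paralogues, members whose probes differed by over 0.5 or were under the floor, members of the short lists, and up to 4 of each other list with the largest ratios. Others, among them Rpl23, Rpl41 and the sets of repeat probes, were named after their values were seen. Python 3.11.15, pandas 2.3.3 and statsmodels 0.14.6 (lowess, span 0.3) were used. The comparison with nearest genes was tested on simulated data, with the simulated members drawn at random from all brightnesses. Its working at the bright end, where most members lie, was therefore not tested. The number of arrays limits the precision.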

Additional observations from a re-analysis of the deposited data

Results flagged for a closer look

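Probes that list a ribosomal protein gene beside another gene were outside the comparisons. Of 11 such probes 8 were above the floor on both arrays, with a median log2 ratio of 0.28 and 7 of the 8 above 0, from -0.10 to 0.52. Above 0 were also 49.5% of all compared genes and 90.4% of other genes with a mean log2 intensity of 8 or more. They carried signal in data that entered no comparison.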

How the results depend on the processing

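Of 145 recomputed values 118 moved little (by at most 0.05 on the log2 scale, or 1.5 times for a count) and no median changed sign. Some of the 118 could not move. The updated symbols changed no member, and rescaling an array shifts a member and its neighbours alike. Moves counted as little include that of the difference over all members from 0.107 to 0.0631 with loess. Quantile normalization gave median ratios of 0.0227 over all members, 0.0226 in the large and 0.0595 in the small subunit, differences from genes of like brightness of 0.0116, 0.00914 and 0.0451, 32 genes above 0 and 3 at least 25% higher. Loess gave median ratios of 0.0273, 0.0245 and 0.0787, differences of 0.0631 over all members and 0.113 in the small subunit, 32 genes above 0 and 3 at least 25% higher. Loess fitted without the members' probes, chosen after seeing the data, gave 0.0326, 0.0276 and 0.0869, a small-subunit difference of 0.117, and 34 and 3 genes. The 3 genes were Rpl35a, Rpl17 and Rplp1 under each. With 20 bins of brightness the differences were 0.161 over all members and 0.155 in the large subunit. With other genes within 0.25 log2 units, also chosen after seeing the data and possible for 37 members, they were 0.0585 and, in the small subunit, 0.0425. With the 25th percentile floor and with none, 1 gene, Rpl34, was at least 20% lower, and with none also 2-fold apart. Counting every probe, 1 (of Rps13) was 2-fold apart. No paired analysis was possible because each group has 1 array. Why quantile normalization and loess lower these values was not tested. By construction the first gives both arrays 1 distribution of intensities, and loess centres ratios at each brightness. At the bright end most genes are members, and leaving their probes out of the loess fit changed the median ratio only from 0.0273 to 0.0326.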

Other observations

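The 5 genes measured by 3 probes on both arrays showed no common order of ratio and brightness. The probes of Rpl27a gave 0.31, 0.23 and 0.11 from the brightest to the dimmest, at intensities in mDom-/- of 1287, 519 and 37.5. Those of Rpl22 gave 0.40, 0.45 and 0.22 in that order, and those of Rpl7l1 0.29, 0.00 and -0.14. Rpl7 gave 0.08, 0.11 and 0.22, and Rpl5 0.15, 0.28 and -0.01, likewise from the brightest to the dimmest. Across the 58 compared members Pearson's r of ratio and mean log2 intensity was 0.30 and Spearman's rho 0.26, a description over genes that share both arrays.

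The pseudogene probes left out by the rule, annotated to Rpl31-ps12 and Rps15a-ps4, read 5.22 and 4.89 in mDom-/- and 3.87 and 4.61 in wild-type.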
